A study of Rattus norvegicus with 16 samples.

Results

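The genes described here encode the enzymes of cholesterol and fatty acid synthesis and their main regulators, in the ventral prostate of rats (Rattus norvegicus). They are 32 genes chosen by symbol: 18 enzymes of the sterol branch, 10 enzymes of the fatty acid branch, and 4 regulators or carriers. All 32 were found among the 28688 entries of the table of counts for postnatal day (PND) 21 and among the 24218 entries of the table for PND540. The RNA came from dissected ventral prostates of the offspring of dams that ate 6% protein while pregnant and nursing (GLLP) or a normal diet of 17% protein (CTR), which the labels state for gestation; the diet of the offspring after weaning, their strain and whether tissue was pooled are not stated. There were 4 GLLP and 5 CTR glands at PND540, and 3 GLLP and 4 CTR glands at PND21. The labels do not say which offspring were littermates, so a p-value here reflects only how far these glands spread.

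The ventral prostate is a lobe of the rodent prostate whose luminal epithelium, under androgen, secretes proteins and lipids into the seminal fluid. Cells build cholesterol from acetyl-CoA through mevalonate, squalene and lanosterol, and they build fatty acids from the same acetyl-CoA through malonyl-CoA. Both routes are driven by the sterol regulatory element-binding proteins, transcription factors encoded by Srebf1 and Srebf2. Srebf2 acts mainly on the sterol branch and Srebf1 mainly on the fatty acid branch, and the membrane protein Insig1 holds both precursors in the endoplasmic reticulum when sterols are plentiful. Androgens are known to raise transcription of these genes in prostate cells.

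The promoters of these genes are shown first as background, and whether their motifs bear on the levels described below was not tested. RefSeq windows of the GRCr8 assembly, 250 bases before to 50 bases after each gene start, matched 24 of the 32 genes once by symbol. Short motifs were searched on both strands. The CCAAT box (CCAAT, or ATTGG on the other strand) was in 18 of the 24 windows, 75% of them, against 37.5% of all 33469 windows of this length. The GC box (GGGCGG, or CCGCCC) was in 20 of the 24, 83.3%, against 33.1% of all windows. All windows were taken with no limit to genes expressed in the gland, so the shares come from unlike sets. By branch, the CCAAT box was in 12 of 15 sterol windows (80%) and 4 of 7 fatty acid windows (57.1%). The GC box was in 13 of 15 (86.7%) and 5 of 7 (71.4%). A strict form of the sterol regulatory element (TCACNCCAC, or GTGGNGTGA) was in 0 of the 24, against 1.12% of all windows, and the letters searched say nothing of looser forms or of sites outside the window. The windows of 4 genes are printed 5′ to 3′ on the strand of the gene, with every CCAAT box in capitals. Idi1 (chr17:66547475-66547774, minus strand) was the sterol gene called lower at PND21, and Nsdhl (chrX:155817110-155817409, plus strand) carried 5 boxes. Insig1 (chr4:8057720-8058019, minus strand) had the largest difference between the diet effects of the ages among the regulators, and Me1 (chr8:96540195-96540494, minus strand) is a fatty acid branch gene with 0 CCAAT boxes and 5 GC boxes.
Idi1: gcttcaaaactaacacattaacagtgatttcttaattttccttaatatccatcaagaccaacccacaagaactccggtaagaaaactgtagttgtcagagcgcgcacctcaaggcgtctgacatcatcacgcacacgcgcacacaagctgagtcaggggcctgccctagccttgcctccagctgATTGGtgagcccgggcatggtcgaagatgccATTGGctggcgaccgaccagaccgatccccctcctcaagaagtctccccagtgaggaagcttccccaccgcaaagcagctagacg
Nsdhl: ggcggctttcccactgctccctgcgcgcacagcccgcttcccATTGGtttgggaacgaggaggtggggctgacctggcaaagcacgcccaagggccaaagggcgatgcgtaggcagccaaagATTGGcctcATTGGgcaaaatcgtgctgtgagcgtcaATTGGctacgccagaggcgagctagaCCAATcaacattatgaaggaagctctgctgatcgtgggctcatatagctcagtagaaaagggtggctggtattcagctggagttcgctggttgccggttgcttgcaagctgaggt
Insig1: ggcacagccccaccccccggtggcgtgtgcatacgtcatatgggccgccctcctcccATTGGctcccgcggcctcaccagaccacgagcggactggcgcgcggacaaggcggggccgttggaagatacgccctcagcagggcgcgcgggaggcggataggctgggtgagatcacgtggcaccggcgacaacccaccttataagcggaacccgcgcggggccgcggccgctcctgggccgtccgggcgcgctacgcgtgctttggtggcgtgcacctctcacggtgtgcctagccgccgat
Me1: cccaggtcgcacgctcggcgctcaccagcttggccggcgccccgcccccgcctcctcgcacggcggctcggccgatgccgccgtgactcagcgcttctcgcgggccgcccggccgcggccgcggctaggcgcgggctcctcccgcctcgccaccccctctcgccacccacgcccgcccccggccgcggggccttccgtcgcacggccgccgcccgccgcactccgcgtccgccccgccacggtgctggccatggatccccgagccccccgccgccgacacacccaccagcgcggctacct

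Totals ran from 28748604 to 39161666 counts per library. Levels are given as CPM, the counts of a gene scaled to a common library size after correction by the trimmed mean of M-values (TMM), and a gene is said to have risen or fallen where the adjusted p of edgeR's quasi-likelihood test was under 0.05 over all genes tested. Gene lengths were not used, so no level is set against that of another gene. Of the 6 listed secretory genes of the gland, 5 were found in each table, though not the same 5. Their summed level was 41174 to 74566 CPM across the PND21 glands and 10458 to 64631 CPM across the PND540 glands. CTR replicate 5 at PND540 stood apart from the other PND540 glands, with a median correlation of 0.851 over all tested genes, while every other library had at least 0.956. CTR replicate 3 at PND21 was the lowest CTR gland of that age in the mean level of both branches. Scd, Acat2 and Fads2 each have a near-identical copy listed in these tables, and the sources used here do not say how shared reads were divided.

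**Figure D1:**
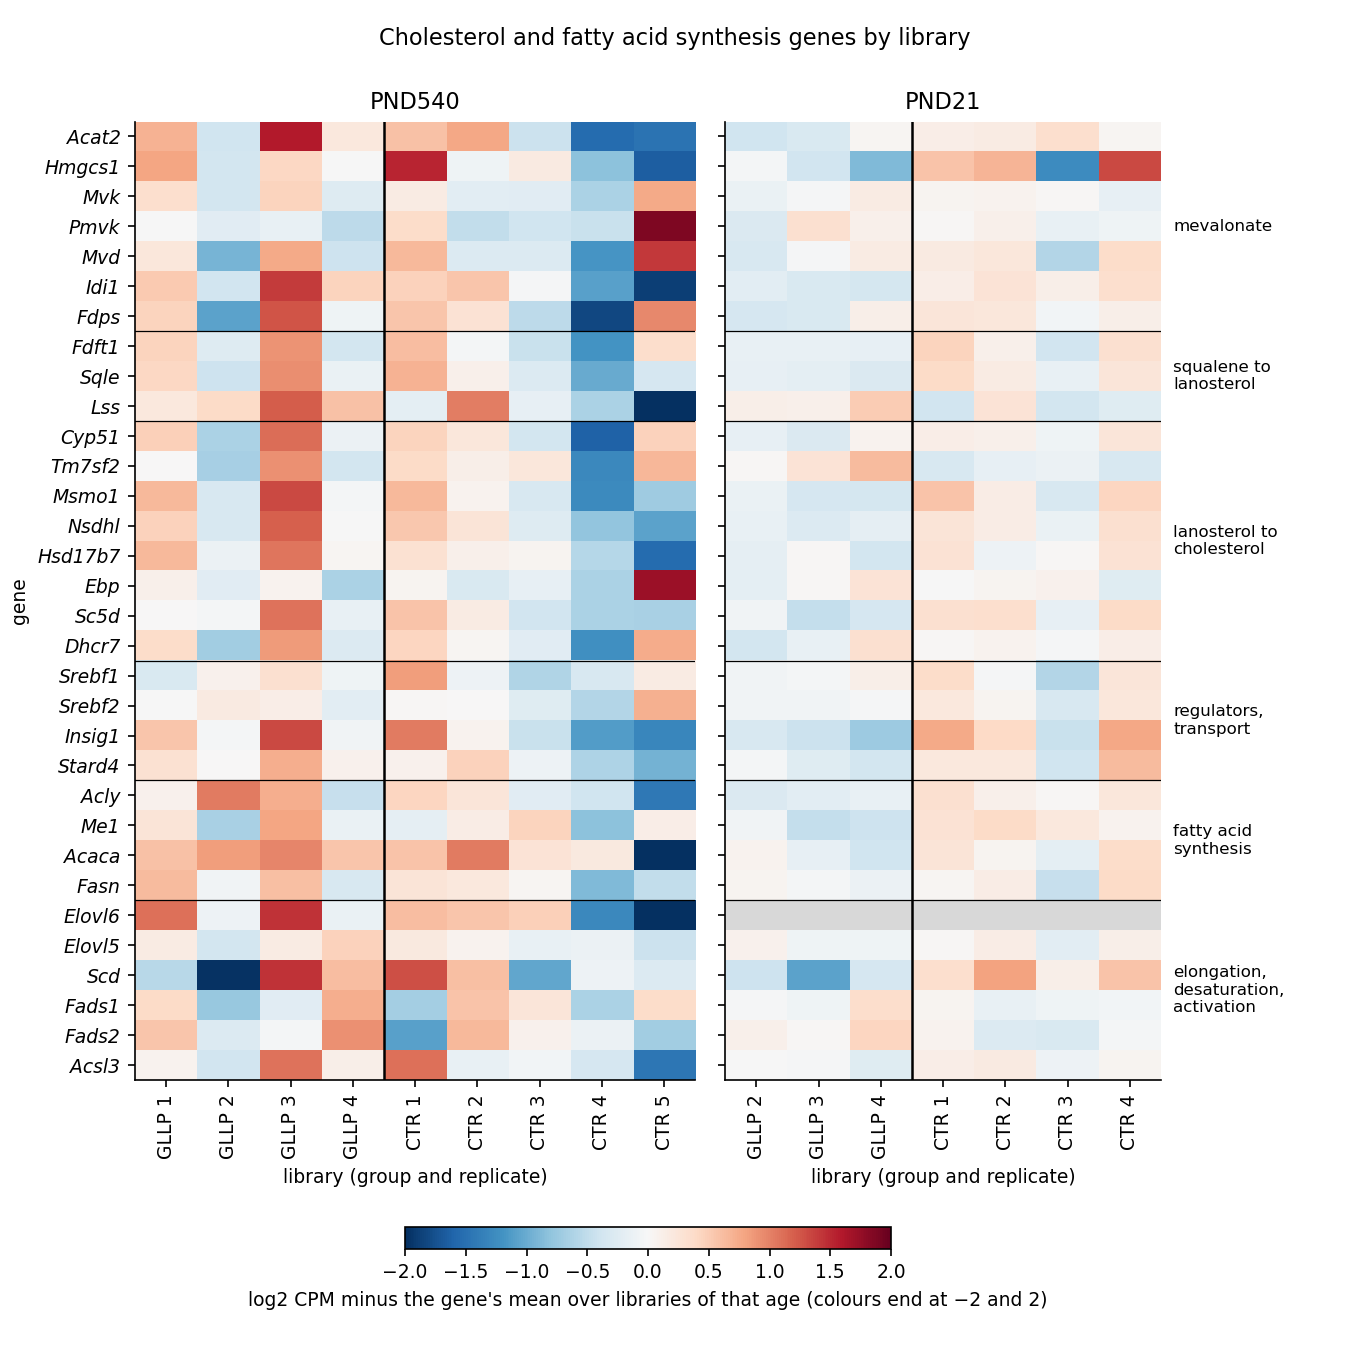
Level of each of the 32 genes (rows, grouped by role) in each library (columns, GLLP then CTR, PND540 left and PND21 right), as log2 CPM minus the mean of that gene over the libraries of that age; grey marks Elovl6 at PND21, which had 1 count in all 7 libraries. At PND540 GLLP replicate 3 is red across most of the sterol branch and CTR replicate 4 is blue, while CTR replicate 5 holds both extremes.

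At PND21 Idi1, the isomerase that makes the second building block of the sterol chain, fell in GLLP glands, and no other gene of the 31 tested passed the threshold. Idi1 had 119.5, 112 and 109 CPM in the 3 GLLP glands and 152, 167, 149.8 and 174 CPM in the 4 CTR glands. Every GLLP gland lay below every CTR gland. The log2 fold change was -0.50 ± 0.09 (SE; edgeR quasi-likelihood test, adjusted p = 0.0336), a level 1.42 times lower. With 1 gene of 31 called, the share has to be read against the 1.11% of all 14915 tested genes that were called in this comparison, most of them higher in GLLP (1.01%) and few lower (0.107%).

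The call on Idi1 depended on single libraries. Its adjusted p was 0.171 without GLLP replicate 3, 0.133 without CTR replicate 2, 0.11 without CTR replicate 4, 0.094 without CTR replicate 1 and 0.0634 without CTR replicate 3, and over all alternatives it ran from 6.86e-05 (DESeq2) to 1 (a fit of all 16 libraries together). The log2 fold change of Idi1 stayed between -0.54 and -0.36 in all of them. DESeq2 called 7 of the 31 genes, Acly, Idi1, Insig1, Me1, Sc5d and Scd lower and Tm7sf2 higher in GLLP, and limma voom with sample weights called 12, 11 of them lower.

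The next genes by p did not pass the threshold. Scd, the desaturase that makes monounsaturated fatty acids, had 16.7, 10.6 and 17.6 CPM in GLLP glands and 28.1, 39.2, 24.2 and 33.0 CPM in CTR glands (log2 fold change -1.06 ± 0.22, SE; edgeR adjusted p = 0.064). Me1, the malic enzyme that supplies NADPH for fatty acid synthesis, had 138, 104 and 108 CPM in GLLP glands and 177, 188, 166 and 152 CPM in CTR glands (-0.55 ± 0.12; edgeR adjusted p = 0.071). Both genes were lower in every GLLP gland than in any CTR gland. Tm7sf2, a sterol reductase that acts just after lanosterol demethylation, went the other way, with 51.3, 61.0 and 77.9 CPM in GLLP glands against 40.3, 44.8, 46.7 and 40.6 CPM in CTR glands (0.56 ± 0.14; edgeR adjusted p = 0.0906). Its GLLP glands all lay above the CTR glands.

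Across the 31 genes, 24 had a log2 fold change below 0 and 7 above, where 50.5% of all tested genes were below 0. The median log2 fold change was -0.29 over the 31 genes, -0.30 over the sterol branch, -0.16 over the fatty acid branch and -0.26 over the regulators and carriers, against -0.0038 over all tested genes. The GLLP glands lay wholly below the CTR glands for 7 genes, Acat2, Idi1, Sqle, Nsdhl, Acly, Me1 and Scd, and wholly above for 1, Tm7sf2; among all tested genes 7.6% lay below and 9.49% above in this way. When libraries were scaled by their totals alone, the median over all genes moved to 0.137, and those of the sterol and fatty acid branches to -0.16 and -0.015, so the branch medians are best read relative to that of all genes.

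In the mevalonate segment, Hmgcs1, the cytosolic synthase of a step before mevalonate, had the widest spread. It had 299, 235 and 166 CPM in GLLP glands and 459, 494, 128 and 765 CPM in CTR glands, so CTR replicate 3 was lower than any GLLP gland (log2 fold change -0.98 ± 0.52; edgeR adjusted p = 0.338). Acat2, the thiolase that joins acetyl-CoA units, averaged 36.7 ± 6.08 CPM in GLLP glands and 48.0 ± 4.35 CPM in CTR glands (SD, n = 3 and 4; edgeR adjusted p = 0.16). Fdps, which makes farnesyl diphosphate, had a log2 fold change of -0.30, and Mvd, the mevalonate diphosphate decarboxylase, of -0.13. The kinases Mvk and Pmvk lay at 0.013 and 0.094. None of these passed the test.

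Further along the route, Sqle, the squalene epoxidase, had 114, 112 and 105 CPM in GLLP glands and 168, 144, 115 and 151 CPM in CTR glands. Fdft1, the squalene synthase, had a log2 fold change of -0.30 and Lss, the lanosterol synthase, one of 0.41. Among the enzymes from lanosterol to cholesterol, Sc5d (the lathosterol oxidase) and Msmo1 (the methylsterol oxidase) were both at -0.52, Nsdhl (the sterol dehydrogenase) at -0.36, Hsd17b7 (the keto-sterol reductase) at -0.30, Cyp51 (the lanosterol demethylase) at -0.22, Dhcr7 (the last reductase of the route) at -0.087 and Ebp (the sterol isomerase) at 0.071. Their adjusted p-values by edgeR lay between 0.128 for Sc5d and 0.779 for Ebp.

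Of the regulators, Insig1 had 302, 279 and 226 CPM in GLLP glands and 636, 497, 275 and 642 CPM in CTR glands (log2 fold change -0.93 ± 0.27; edgeR adjusted p = 0.132). CTR replicate 3 again fell among the GLLP glands, and without it Insig1 was the gene of the 31 that edgeR called. Stard4, a carrier of cholesterol between membranes, had a log2 fold change of -0.41, Srebf2 of -0.11 and Srebf1 of -0.042. In the fatty acid branch Acly, which makes cytosolic acetyl-CoA from citrate, had 1615, 1704 and 1777 CPM in GLLP glands against 2457, 2119, 2003 and 2307 CPM in CTR glands (-0.39; edgeR adjusted p = 0.135). Acaca, the acetyl-CoA carboxylase of lipogenesis, was at -0.29 and Fasn, the fatty acid synthase, at -0.094. Acsl3 (acyl-CoA synthetase) and the elongase Elovl5 were at -0.16 and -0.052, and the desaturases Fads1 and Fads2 at 0.15 and 0.33. Elovl6, an elongase of saturated fatty acids, was not tested, since 1 count in CTR replicate 3 was its total at PND21; a count of 0 allows up to 3 counts per library, which is at most 0.108 CPM in a GLLP gland on the scale of both ages.

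Among other genes of the pathway, 1 of 18 tested genes of sterol handling and 1 of 19 of fatty acid and triglyceride metabolism passed the test. The share over all tested genes was 1.11%. Abcg1, an exporter of cholesterol, rose: it had 14.2, 16.8 and 17.8 CPM in GLLP glands and 8.89, 7.61, 7.30 and 10.7 CPM in CTR glands (log2 fold change 0.92 ± 0.16; edgeR adjusted p = 0.0364). Acacb, the carboxylase that restrains fatty acid oxidation, fell: it had 142, 157 and 144 CPM in GLLP glands against 185, 196, 208 and 209 CPM in CTR glands (-0.43 ± 0.08; edgeR adjusted p = 0.0495). The groups did not overlap in either gene, as in 17.1% of all tested genes. The call on Abcg1 was lost without GLLP replicate 3 or 4 or CTR replicate 1, 2 or 3, with an adjusted p of 0.0584 to 0.177. That on Acacb was lost without GLLP replicate 3 or 4 or any 1 of the CTR glands (0.0684 to 0.156), and it was also lost under other scalings and filters (0.0512 to 0.11). Of the 9 alternatives that left out no library, 7 kept the call on Abcg1 and 2 that on Acacb.

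Marker levels of other cell types differed between the same glands. The summed level of 8 skeletal muscle markers was 351 to 611 CPM in GLLP glands and 11.6 to 17.9 CPM in CTR glands. All 8 rose, against 1.01% of all tested genes. Only 6 of the 8 were tested with age in CTR glands. The others may have passed the filter on low counts here only through the GLLP glands, so their rise is a description. The summed level of the secretory genes was 41174 to 57975 CPM in GLLP glands and 59655 to 74566 CPM in CTR glands, without overlap, although none of the 5 passed the test. Fibroblast markers summed to 5101 to 6427 CPM in GLLP glands and 3564 to 5275 CPM in CTR glands, and luminal epithelial markers to 2648 to 3064 CPM against 2610 to 3358 CPM. Leukocyte markers summed to 62.4 to 71.0 CPM in GLLP glands and 43.0 to 59.4 CPM in CTR glands, without overlap, and basal epithelial markers to 507 to 1220.3 CPM against 289 to 747 CPM; none of the genes of these 4 lists passed the test. Adipocyte markers, of a cell type rich in lipogenic enzymes, summed to 44.1 to 113 CPM in GLLP glands and 59.7 to 129 CPM in CTR glands. Of 9 adipocyte markers tested, 8 had a log2 fold change below 0 and 1 above. Their median was -0.73, and none passed the test. In a whole gland, fewer cells of a type and less RNA per cell cannot be told apart, and the part of these cell types in the results at PND21 was not tested.

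At PND540 none of the 32 genes passed the test in GLLP against CTR glands; the smallest unadjusted p was 0.11 and 0 of them were under 0.05. Among all 14767 tested genes edgeR called 0%, with 0.833% under an unadjusted p of 0.05, and DESeq2 called 2 genes, neither of them a member. The log2 fold change was above 0 for 26 of the 32 genes and below 0 for 6. The median was 0.32 over the 32 genes, 0.32 over the sterol branch and 0.33 over the fatty acid branch, against -0.0003 over all tested genes. The groups overlapped in every one of the 32; among all tested genes 0.393% had groups without overlap, 0.183% with GLLP above and 0.21% with GLLP below CTR.

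The 4 genes with the smallest p show the spread between the glands. Hsd17b7 had 19.1, 11.2, 25.6 and 12.5 CPM in GLLP glands and 15.0, 13.1, 12.7, 8.12 and 4.12 CPM in CTR glands (log2 fold change 0.69 ± 0.39; edgeR adjusted p = 0.914). Msmo1 had 154, 79.3, 248 and 96.1 CPM in GLLP glands and 154, 103, 79.6, 40.7 and 60.3 CPM in CTR glands (0.72 ± 0.43; edgeR adjusted p = 0.914). Idi1 had 74.1, 39.4, 136 and 70.0 CPM in GLLP glands and 71.0, 75.4, 50.6, 24.2 and 14.0 CPM in CTR glands (0.76 ± 0.51; edgeR adjusted p = 0.914). The highest value of each was in GLLP replicate 3 and the lowest in CTR replicate 4 or 5, with GLLP replicates 2 and 4 within the CTR range. Stard4 had 27.1, 22.1, 36.4 and 23.4 CPM in GLLP glands and 23.3, 30.3, 20.5, 14.2 and 11.3 CPM in CTR glands (0.45 ± 0.30; edgeR adjusted p = 0.914). The median of the sterol branch rested on GLLP replicate 3: it was -0.0015 without that gland, and 0.22 for the fatty acid branch.

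The 6 genes with a negative diet effect at PND540 were Pmvk (log2 fold change -0.73), Ebp (-0.56), Mvd (-0.29), Srebf1 (-0.065), Tm7sf2 (-0.050) and Srebf2 (-0.011), of which Pmvk, Ebp, Mvd and Srebf2 had their highest level of the 9 glands in CTR replicate 5. All 10 genes of the fatty acid branch had a positive one. Fasn had 571, 353, 562 and 297 CPM in GLLP glands and 443, 429.9, 381, 201 and 263 CPM in CTR glands. Acly had 1509.5, 2913, 2352 and 1029 CPM in GLLP glands and 1908, 1678, 1209.6, 1079 and 529 CPM in CTR glands. In both genes the ranges of the groups overlapped. Elovl6, counted at PND540, had 2.20, 0.897, 2.81 and 0.880 CPM in GLLP glands and 1.54, 1.48, 1.40, 0.341 and 0.0687 CPM in CTR glands.

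The variation at PND540 was shared among the genes of the sterol branch. GLLP replicate 3 had the highest level of 13 of the 18 sterol genes, and CTR replicate 4 was among the lowest 2 glands for 17 of the 18. Over the 8 glands other than CTR replicate 5, the median correlation of log2 CPM between pairs of sterol genes was 0.873, and 92.8% of the 153 pairs were above 0.5. Between pairs of all tested genes in the same 8 glands the median was -0.003, with 16.8% above 0.5. Pairs within the fatty acid branch had a median of 0.259, and pairs between the branches 0.533. With CTR replicate 5 among 9 glands the sterol median was 0.612, against 0.314 within the fatty acid branch and 0.377 between the branches. In the 7 glands at PND21 the sterol median was 0.365, close to 0.356 within the fatty acid branch and 0.355 between the branches. The median over all tested genes at PND21 was -0.001. These correlations share their libraries and scaling, and the glands are of both diets, so they describe these samples only.

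In CTR replicate 5 the sterol genes did not keep together. It had the highest level of 4 of the 18 genes: 242 CPM of Pmvk, 57.1 CPM of Mvk, 50.1 CPM of Mvd and 301 CPM of Ebp, where the other 8 glands had at most 84.9, 46.0, 31.7 and 97.9 CPM. It had the lowest level of 6, among them 14.0 CPM of Idi1, 45.7 CPM of Hmgcs1, 13.3 CPM of Lss and 25.0 CPM of Nsdhl. In the fatty acid branch Acaca had 0.825 CPM in this gland and 34.5 to 62.2 CPM in the other 8. The mean log2 CPM of the sterol genes minus that of the fatty acid genes, a quantity compared here only between glands, was 1.36 in this gland and -0.19 to 0.77 in the other 8. Without this gland the median diet effect at PND540 was 0.35 for the sterol branch and 0.19 for the fatty acid branch, and again 0 of the 32 genes were called.

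Marker levels varied between the same glands. Luminal epithelial markers summed to 3656 CPM in GLLP replicate 3, the lowest of the 9 glands, and to 10517 CPM in CTR replicate 5, the highest. The secretory genes summed to 10458 CPM in GLLP replicate 2 and 11806 CPM in CTR replicate 4, and to 24048 CPM or more in the other 7. Adipocyte markers summed to 169 to 377 CPM in GLLP glands and 19.2 to 372 CPM in CTR glands, with all 10 markers found in both tables. GLLP replicate 3, the gland highest in most sterol genes, had the lowest adipocyte sum of the GLLP glands at 169 CPM. CTR replicates 1, 3 and 4 had lower sums, of 19.2, 87.1 and 108 CPM. The log2 fold change of GLLP over CTR was above 0 for 9 of the 10 adipocyte markers and below 0 for 1. Its median was 0.81, and none of the 10 passed the test. All 6 fibroblast markers were also above 0, with a median of 0.72. By contrast, 7 of 8 luminal epithelial markers and all 4 basal epithelial markers tested were below 0. None of these passed the test either. Basal epithelial markers summed to 1196 CPM in CTR replicate 5 and to 157 to 393 CPM in the other glands. The part of cell composition in these differences was not tested.

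**Figure D2:**
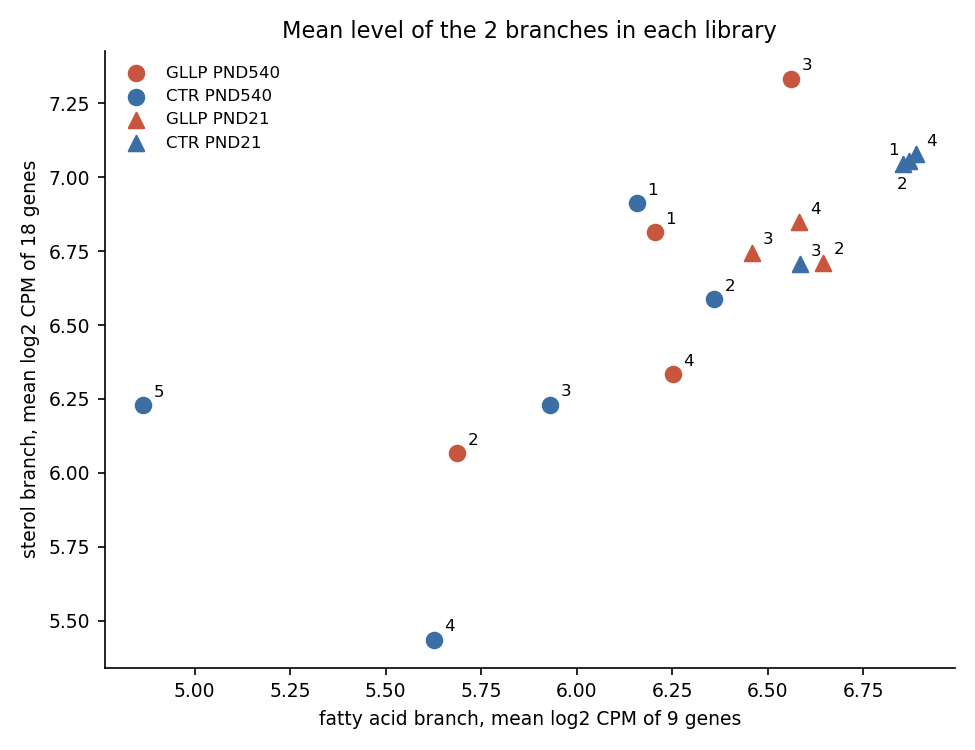
Mean log2 CPM of the 18 sterol genes (vertical) against that of 9 fatty acid genes, without Elovl6 (horizontal), in each library, on 1 scale for both ages; circles are PND540, triangles PND21, red GLLP, blue CTR, and numbers are replicates. The PND540 glands spread from 5.43 to 7.33 on the sterol axis, the PND21 glands from 6.71 to 7.08, and CTR replicate 5 at PND540 lies far left.

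For the ages, the PND540 and PND21 glands were scaled together on the 19709 gene names found once in both tables. The tables list different sets of entries, for which the labels give no reason, so age and any difference in annotation or counting between the tables cannot be told apart. In GLLP offspring 6 of the 32 genes passed the test between PND540 and PND21, a share below the 36.2% of all 13694 genes tested: Srebf1, Acaca, Fasn and Fads2 fell and Insig1 rose, and Elovl6, which reached the test only through its PND540 counts, was the sixth. None of the 18 sterol genes passed it. The median log2 fold change was -0.02 over the sterol branch and -0.29 over the fatty acid branch, against 0.02 over all genes tested. Of the 32 genes 17 had a negative log2 fold change, against 48.7% of all genes tested, and 8 an unadjusted p under 0.05, against 45.4%. The ages did not overlap in 7 genes, 3 higher at PND540 (Srebf2, Insig1, Elovl6) and 4 lower (Srebf1, Acaca, Fasn, Fads2), where 44.7% of all genes tested had no overlap, 22.8% higher and 21.9% lower.

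Srebf1, the regulator of the fatty acid branch, had 158, 208, 239.6 and 185 CPM in GLLP glands at PND540 and 354, 363 and 403 CPM at PND21 (log2 fold change -0.93 ± 0.17; edgeR adjusted p = 0.00251). Acaca had 53.7, 64.4, 69.4 and 53.0 CPM at PND540 and 108, 90.7 and 77.0 CPM at PND21 (-0.62 ± 0.16; edgeR adjusted p = 0.014). Fasn had 674, 422, 657 and 354 CPM at PND540 against 931, 872 and 825 CPM at PND21 (-0.75 ± 0.24; edgeR adjusted p = 0.0386). In these 3 genes every PND540 gland was below every PND21 gland. Fads2, the desaturase that opens the route to long polyunsaturated fatty acids, had 11.3, 6.37, 7.39 and 14.6 CPM at PND540 and 18.4, 17.2 and 22.9 CPM at PND21 (-0.98 ± 0.31; edgeR adjusted p = 0.0338). Insig1 had 722, 485, 1219 and 471 CPM at PND540 and 336, 311 and 250.3 CPM at PND21 (1.26 ± 0.34; edgeR adjusted p = 0.0173). Its PND540 glands all lay above the PND21 glands, with the highest value again in replicate 3.

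Elovl6 had 2.60, 1.07, 3.29 and 1.05 CPM in GLLP glands at PND540, where the lowest count was 30, and 0 counts in the 3 GLLP glands at PND21. Against a floor of 3 counts per library the mean at PND540 was at least 18.6-fold higher. Elovl6 passed the filter on low counts only through its PND540 counts, so its difference with age is a description in both diet groups, with no test read from it.

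Leaving out 1 gland changed these counts. Without GLLP replicate 3 at PND540, 9 genes passed the test, with Idi1, Sc5d, Tm7sf2 and Acsl3 among them and all 4 lower at PND540; the sterol median was then -0.33. Without GLLP replicate 2, 3 or 4 at PND21 the count was 3, 2 and 3. Srebf1 passed under all the alternatives, with adjusted p-values up to 0.0254, while Insig1 reached 0.0729, Fasn 0.104, Fads2 0.118 and Acaca 0.569. Insig1 lost its call without GLLP replicate 3 or 4 at PND21, and Acaca without GLLP replicate 2 or 3 at PND21. Fasn and Fads2 lost theirs without any 1 of the GLLP glands at PND21, and also without PND540 replicate 2 or 4 for Fasn and PND540 replicate 1, 2 or 3 for Fads2.

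In CTR offspring 9 of the 32 genes passed the test between PND540 and PND21, against 30.5% of all 13510 genes tested. Of these, 8 fell, where 13.2% of all genes tested fell, and the other was Elovl6, which reached the test only through its PND540 counts. The genes that fell were Idi1, Sc5d and Nsdhl of the sterol branch, Fasn, Me1, Fads2 and Acsl3 of the fatty acid branch, and Srebf1. The log2 fold change was below 0 for 26 of the 32 genes, with a median of -0.70 over the sterol branch and -0.74 over the fatty acid branch, against 46.1% below 0 and a median of 0.07 over all genes tested. An unadjusted p under 0.05 was found for 11 of the 32 and for 41% of all genes tested. The ages did not overlap in 11 genes, 10 of them lower at PND540, where 37.7% of all genes tested had no overlap, 18.7% higher and 19% lower.

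Idi1 had 83.1, 90.4, 60.4, 29.0 and 15.9 CPM in CTR glands at PND540 and 169.7, 186, 167 and 194 CPM at PND21 (log2 fold change -1.68 ± 0.45; edgeR adjusted p = 0.0172), a level 3.21 times lower. Every PND540 gland lay below every PND21 gland. Nsdhl had 88.9, 75.4, 52.2, 36.4 and 28.5 CPM at PND540 and 119, 109, 90.7 and 124 CPM at PND21 (-0.98 ± 0.32; edgeR adjusted p = 0.0439), also without overlap. Sc5d had 169, 131, 89.2, 75.5 and 70.7 CPM at PND540 and 235, 238, 169 and 246 CPM at PND21 (-1.05 ± 0.28; edgeR adjusted p = 0.0171), where PND540 replicate 1 overlapped PND21 replicate 3.

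In the fatty acid branch Fasn had 519, 515, 454, 241 and 299.5 CPM in CTR glands at PND540 and 927, 992, 654 and 1174 CPM at PND21 (log2 fold change -1.21 ± 0.28; edgeR adjusted p = 0.00871). Me1 had 97.3, 125, 153, 63.7 and 117 CPM at PND540 and 197, 209, 185 and 169.5 CPM at PND21 (-0.77 ± 0.23; edgeR adjusted p = 0.0311). Neither gene's groups overlapped. Acsl3 had 103, 44.1, 46.9, 38.9 and 17.0 CPM at PND540 and 126, 131, 107 and 119.8 CPM at PND21 (-1.27 ± 0.41; edgeR adjusted p = 0.0396). Fads2 had 3.52, 12.2, 8.24, 7.20 and 4.50 CPM at PND540 and 17.9, 14.0, 13.8 and 16.5 CPM at PND21 (-1.12 ± 0.34; edgeR adjusted p = 0.0338). Both were lower in every PND540 gland than in any PND21 gland. Srebf1 averaged 206 ± 84.1 CPM at PND540 and 385 ± 103 CPM at PND21 (SD, n = 5 and 4; -0.91 ± 0.30; edgeR adjusted p = 0.0472).

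Elovl6 had 161 counts over the 5 CTR glands at PND540 and 1 count over the 4 CTR glands at PND21. The ratio at equal depth was 138, with a 95% counting interval from 24.5 to 5503 that covers counting error only. Its levels at PND540 were 1.80, 1.78, 1.67, 0.410 and 0.0782 CPM, the lowest of them in replicate 5.

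Among the 8 genes that fell in CTR offspring, Fasn and Idi1 passed under every alternative, with adjusted p-values up to 0.0329 and 0.045, and Sc5d lost its call without CTR replicate 4 at PND21, at 0.0513. Me1, Fads2, Acsl3 and Nsdhl lost theirs without any 1 of the CTR glands at PND21, with adjusted p-values up to 0.108, and Srebf1 without replicate 1, 2 or 4 of them, up to 0.132. Among the CTR glands at PND540, leaving out replicate 3 or 4 ended the calls on Nsdhl, Fads2, Acsl3 and Srebf1, leaving out replicate 2 those on Acsl3 and Srebf1, and leaving out replicate 1 that on Me1. Elovl6 fell below the filter and was not tested without CTR replicate 1, 2, 3 or 4 at PND540, nor with the filter at 1 CPM. Without CTR replicate 5 at PND540 the count rose to 13 genes, and Idi1 had a log2 fold change of -1.45, Sc5d of -0.94, Fasn of -1.12 and Nsdhl of -0.81. Without CTR replicate 1, 2, 3 or 4 at PND21 the count was 4, 4, 5 and 3, and without CTR replicate 3 or 4 at PND540 it was 4 and 5.

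**Figure D3:**
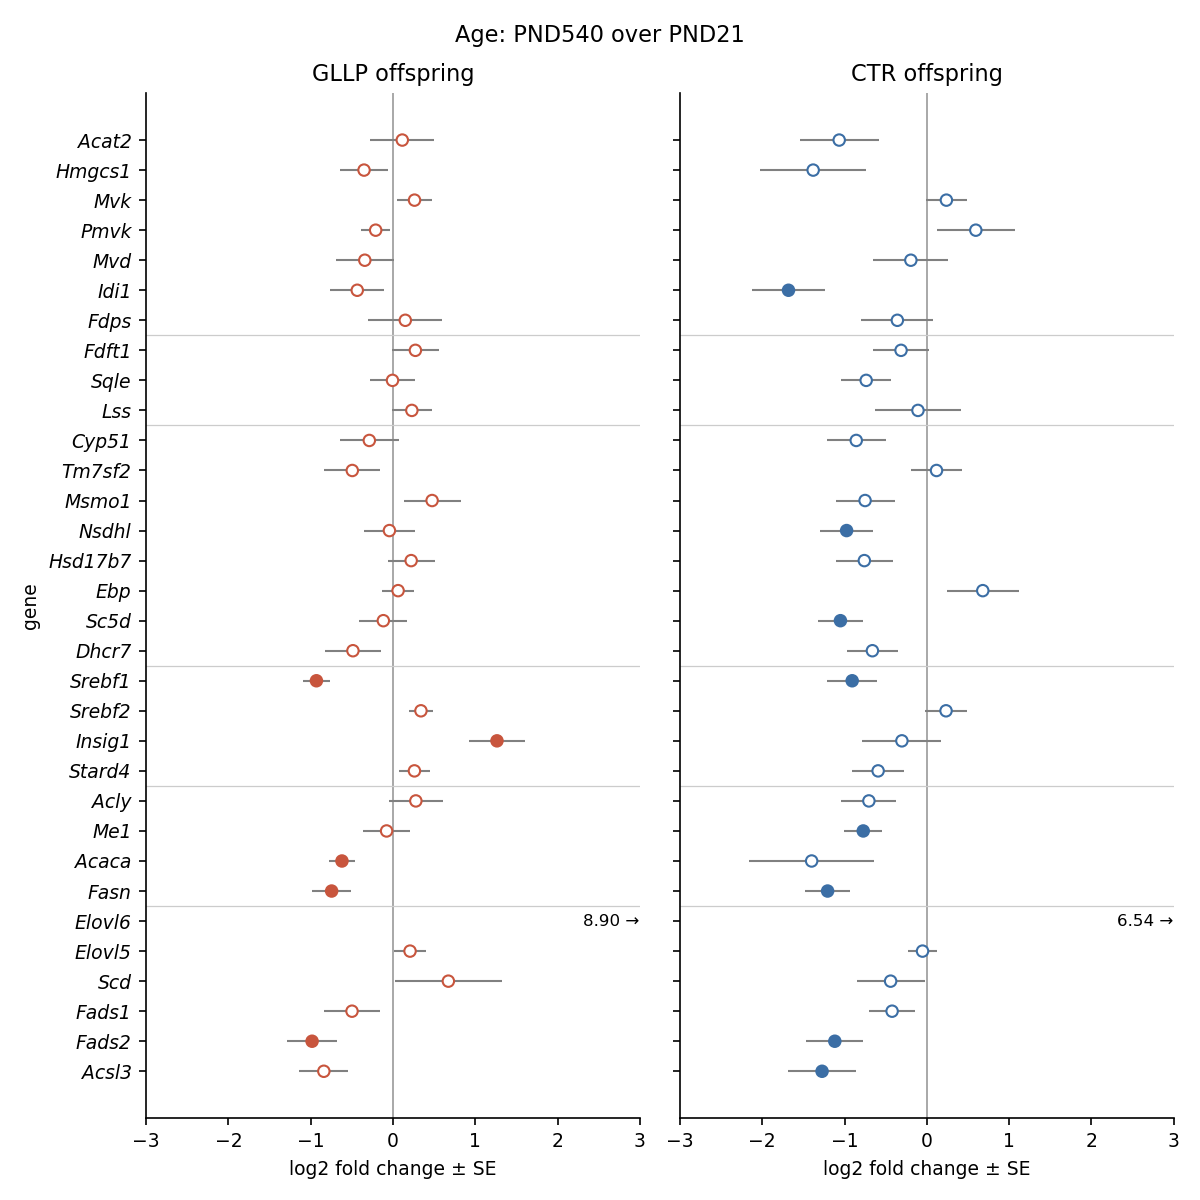
Log2 fold change of PND540 over PND21 for each of the 32 genes in GLLP offspring (left) and CTR offspring (right), with bars of 1 SE; filled points passed edgeR's test at an adjusted p under 0.05, and the arrows give the fitted value of Elovl6, which depends on the prior count because PND21 had 0 or 1 counts. In CTR offspring 26 of the 32 values lie below 0, and in GLLP offspring 17 do.

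The genes that passed in 1 diet group were not shown to differ between the groups by that alone, and the test of the difference is given with the interaction. Of 18 sterol handling genes tested, 3 rose and 3 fell in GLLP offspring, and 2 rose and 1 fell in CTR offspring. Of all genes tested, 19.1% rose and 17.1% fell in GLLP offspring, and 17.3% rose and 13.2% fell in CTR offspring. Of 19 tested genes of fatty acid and triglyceride metabolism, 3 rose and 2 fell in GLLP offspring, and 3 rose and 1 fell in CTR offspring, shares below the 36.2% and 30.5% of all genes called in either direction. Insig2, which like Insig1 retains the regulators in the endoplasmic reticulum, averaged 51.1 ± 8.72 CPM at PND540 and 12.7 ± 2.34 CPM at PND21 in GLLP offspring (SD, n = 4 and 3; log2 fold change 2.00 ± 0.20; edgeR adjusted p = 0.000113). In CTR offspring it averaged 50.2 ± 5.87 CPM at PND540 and 14.5 ± 0.886 CPM at PND21 (SD, n = 5 and 4; 1.79 ± 0.16; edgeR adjusted p = 3.23e-05). All 9 PND540 glands were above all 7 PND21 glands.

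Gpam, which starts glycerolipid synthesis, rose with a log2 fold change of 1.26 in GLLP and 0.94 in CTR offspring, and Lpin1, a phosphatidate phosphatase, with 1.58 in GLLP and 0.92 in CTR offspring. Npc1, which exports cholesterol from lysosomes, rose in GLLP offspring (1.08), and its partner Npc2 rose in CTR offspring (1.36). Acsl4, a synthetase that prefers arachidonic acid, fell in both (-0.83 in GLLP and -1.92 in CTR). Dgat1, which makes triglycerides, Mylip, a ubiquitin ligase for lipoprotein receptors, and Abca1, a cholesterol exporter, fell in GLLP offspring (-0.76, -1.05 and -1.19). With 1 gland left out, the call in GLLP offspring was kept in 2 of 7 fits for Acsl4 and 4 of 7 for Abca1. That on Npc2 in CTR offspring was kept in 6 of 9. The other calls named in this paragraph were kept in every such fit. None of these genes passed the interaction test described last, where the smallest adjusted p among them was 0.738 by edgeR.

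Marker levels also differed between the ages. Over all genes tested, 19.1% rose and 17.1% fell in GLLP offspring, and 17.3% rose and 13.2% fell in CTR offspring. Of 8 luminal epithelial markers 5 rose with age in GLLP offspring and 5 in CTR offspring, and of 7 smooth muscle markers 6 fell in GLLP and 5 in CTR offspring. Of 6 fibroblast markers 4 fell and 1 rose in GLLP offspring, and 3 fell and 1 rose in CTR offspring, with a median log2 fold change of -1.64 in GLLP and -2.12 in CTR offspring. Of 6 leukocyte markers tested 2 rose in GLLP and 3 in CTR offspring, and of 4 basal epithelial markers tested 2 fell in GLLP and 1 rose in CTR offspring. Of 10 adipocyte markers 8 rose in GLLP offspring and 1 in CTR offspring, where the median log2 fold changes of the list were 2.77 and 1.32. In the diet fit at PND21 only 5 fibroblast, 5 leukocyte and 9 adipocyte markers passed the filter on low counts. A marker of these lists not tested there reached the age tests only through its PND540 counts, so no test is read from it. All 8 skeletal muscle markers fell in GLLP offspring, whose PND540 glands held 6.07 to 10.6 CPM of them. Only 4 of the 8 were tested for diet at PND540. The others may have reached the age test only through their PND21 counts, so their fall is a description. The part of these cell types in the age results was not tested.

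**Figure D4:**
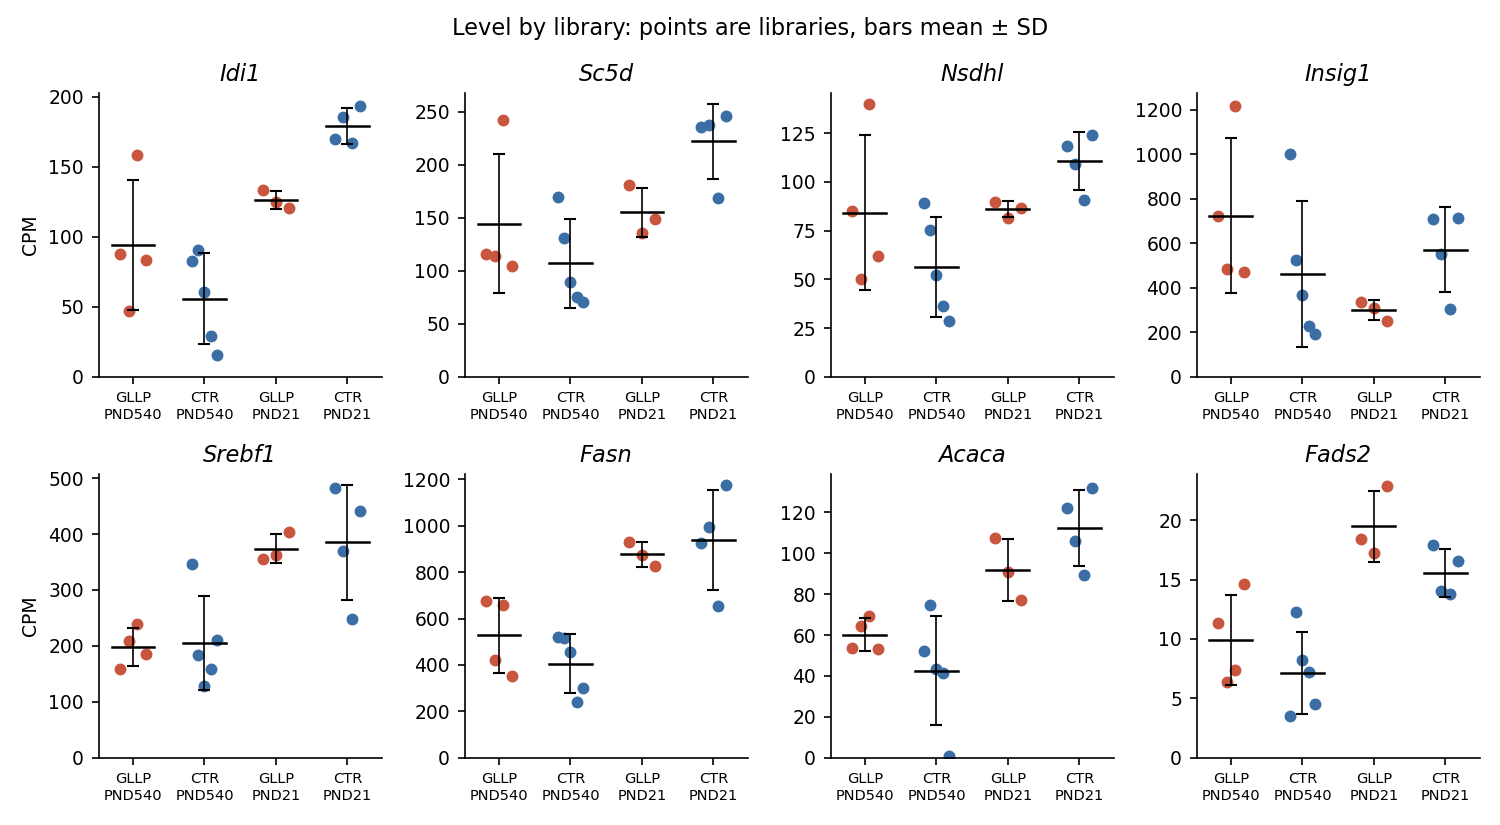
Level in CPM, on 1 scale for both ages, of 8 genes in each library by group; points are libraries, long bars the group mean and error bars the SD. Idi1, Sc5d and Nsdhl have their highest group mean in CTR glands at PND21, Insig1 in GLLP glands at PND540 is above GLLP glands at PND21, and Srebf1, Fasn, Acaca and Fads2 have lower means at PND540 in both diet groups.

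The diet effect at PND540 minus that at PND21 was tested as an interaction over all 16 glands, and 0 of the 32 genes passed, against 0.0917% of the 14178 genes tested (13 genes, all lower). An unadjusted p under 0.05 was found for 3 of the 32 genes, and for 5.17% of all genes tested. The difference was above 0 for 26 genes and below 0 for 6, where 52% of all genes tested were below 0, with a median of 0.59 over the sterol branch and 0.59 over the fatty acid branch, against -0.03 over all genes tested. Insig1 had the smallest p (1.58 ± 0.67 on the log2 scale; edgeR adjusted p = 0.738, unadjusted 0.0313). Its diet effect was 0.65 at PND540 and -0.93 at PND21, and neither passed the test. At PND540 Insig1 had 612, 405, 1043 and 395 CPM in GLLP glands and 854, 439, 307, 192 and 168 CPM in CTR glands, scaled within that age, so that the groups overlapped at PND540 as they did at PND21. Msmo1 followed at 1.24 ± 0.55 (edgeR adjusted p = 0.738); its PND21 levels were 121, 104 and 103 CPM in GLLP glands and 196, 146, 106 and 177 CPM in CTR glands. Sc5d came next at 0.95 ± 0.44 (edgeR adjusted p = 0.738). It had 98.3, 95.0, 208 and 87.7 CPM in GLLP glands and 144, 109, 74.8, 63.0 and 62.2 CPM in CTR glands at PND540, and 162, 122 and 135 CPM in GLLP glands and 211, 213, 152 and 221 CPM in CTR glands at PND21. Stard4 was at 0.87 ± 0.42 (edgeR adjusted p = 0.738), with 26.9, 23.5 and 21.6 CPM in GLLP glands and 32.0, 32.1, 20.9 and 42.8 CPM in CTR glands at PND21. In all 4 genes GLLP replicate 3 was the highest GLLP gland at PND540. DESeq2 and the other alternatives also called 0 of the 32. The median over the sterol branch was 0.26 without GLLP replicate 3 at PND540 and 0.69 without CTR replicate 5 at PND540, while that over the fatty acid branch was 0.38 and 0.42. All 10 adipocyte markers had a difference above 0, with a median of 1.76, and none passed the test. The part of adipocytes in the interaction was not tested.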

How the data were processed

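RNA sequencing of 16 ventral prostates was deposited by the authors as raw read counts per gene, with PND21 and PND540 in separate tables. Per the submitters' processing notes, STAR, edgeR 3.34.0 and Rnor_6.0 were used; the sources used here do not give their roles, the annotation or the strand setting. Counts were tested as deposited with edgeR 4.0.16 (R 4.3.3): filterByExpr (minimum count 10, minimum total 15), TMM scaling, a robust quasi-likelihood F-test and Benjamini-Hochberg adjustment over all genes tested, at 0.05. The SE is the absolute log2 fold change divided by the square root of F. Diet was tested within each table. Age and the interaction used the 19709 shared gene names. Replicates differed beyond sampling noise (chi-square per degree of freedom 30.3 to 829), so all counted as separate samples. Alternatives were other scalings, filters, a fit of all 16 libraries, a replicate term, limma 3.58.1, DESeq2 1.42.0 and leaving out each library. The fits were tested on simulated data.

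The member genes and the pathway and marker lists were chosen with earlier results of these data known. Values per library are given for members that passed the test (the 8 with the smallest p where more passed), or for the 4 with the smallest p where fewer than 4 passed. Pathway genes outside the members are named where they passed, at most 4 in each direction by p. A gene that passed is not reported here. Promoter windows are from RefSeq (GRCr8); no coordinates of the counting build are given. Figures were drawn with matplotlib 3.10.9.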

Additional observations from a re-analysis of the deposited data

Results flagged for a closer look

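In 7 of 102 groups of values, the highest or lowest gland stood away from the others of its group by more than Dixon's test allows at the 95% level; chance gives about 1 in 20. The measure is the gap to the nearest gland divided by the range of the group. The groups of values are not independent, since they share glands and the branch levels are means of genes also taken singly. The 7 flags therefore cannot be read as a test against 1 in 20. The 3 GLLP glands at PND21 were too few to be included. CTR replicate 3 at PND21 was the lowest of its group in the mean level of the sterol branch (0.907), in the mean level of the fatty acid branch (0.885) and in Sc5d (0.885), and the highest in Elovl6 (1), where it held the 1 count of the 4 glands. GLLP replicate 3 at PND540 was the highest of its group in Sc5d (0.868). CTR replicate 5 at PND540 was the lowest of its group in Acaca (0.861), with 24 counts, and CTR replicate 4 at PND540 was the lowest in Tm7sf2 (0.725).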

How the results depend on the processing

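No member called in a comparison changed direction under any alternative run. The sterol median, never tested, crossed 0: it ran from -0.0015 to 0.56 at PND540 and from -0.33 to 0.12 with age in GLLP offspring when 1 library was left out. At PND21 the number of members called, 1 as reported, was 2 with library size alone, 7 with DESeq2, 12 with limma voom, 2 with no filter on low counts, 0 with a replicate block, 0 in one fit of all 16 libraries, and 0 to 5 when 1 library was left out. With library size alone the fatty acid median at PND21 was -0.015 and the difference in mean fatty acid level, GLLP minus CTR, -0.094 against -0.23. With age in GLLP offspring the number was 6, or 2 in the fit of all 16 libraries and 2 to 9 when 1 library was left out. With age in CTR offspring it was 9, or 19 with limma voom, 15 with a replicate block and 3 to 13 when 1 library was left out. The cause was not tested. At PND540 and for the interaction the number was 0 under every alternative run. Over all genes at PND21, 166 were called, 27 to 3455 in other settings and 62 to 1509 when 1 library was left out. Same-numbered replicates correlated at -0.17 to 0.30 in their deviations, and most of the 14 did not correlate best with their own number. The numbers were therefore not taken as pairs. The replicate block left 6 calls with age in GLLP offspring and 0 at PND540.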
